A study of Mus musculus with 12 samples.

Results

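The HMGA and HMGB proteins are small, abundant proteins of chromatin. The 6 genes described here are Hmga1, Hmga1b, Hmga2, Hmgb1, Hmgb2 and Hmgb3. They were found by symbol among the 17416 genes listed in both deposited tables of the series, which hold 18223 and 17800 genes. Earlier results of these data were known when they were chosen: Hmga1b, Hmga2 and Hmgb2 were chosen by their higher FPKM in the H-Ras(G12V) libraries than in the mCherry libraries. For the members that comparison is therefore a description, with no p-value, and nothing is read from which of them pass a threshold in it. The etoposide comparison was tested.

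Primary neurons of C57BL/6 mice were sampled on day 10 as 12 mRNA libraries, 3 in each of 4 groups. In the first model, neurons over-expressed H-Ras(G12V), the oncogenic mutant of a small GTPase that is locked in its active state, from an adeno-associated virus (AAV), and the control neurons, labelled wild type, carried the fluorescent protein mCherry. In the second model, wild-type neurons received etoposide, which traps topoisomerase II on broken DNA, or its solvent DMSO. The study uses the first as a model of oncogene-induced senescence and the second as a model of stress-induced premature senescence. The promoter of the virus, the share of cells that took it up, the dose of etoposide and the age of the animals are not given in the sources used here. Nothing in the labels says whether replicate libraries stem from separate cultures, and every p-value rests on the spread between libraries, which may be technical.

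HMGA proteins hold DNA through AT-hooks, short motifs that fit the minor groove of AT-rich sequence, and they help transcription factors assemble on enhancers. Hmga1 and Hmga2 are high in embryonic and dividing cells and in tumours, low in most adult tissues, and become part of the condensed heterochromatin foci of some senescent cells. HMGB proteins bend DNA through HMG boxes. Hmgb1, the most abundant of them, leaves the nucleus of senescent cells and acts outside the cell as an alarm signal, while Hmgb2 goes with proliferation and is commonly reduced in senescence. Neurons in culture do not divide, but such cultures can hold progenitors, glia and fibroblasts that do.

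Labels and libraries set limits on what follows. For the etoposide and DMSO libraries the treatment tag contradicts the title and the library name, and groups were taken from the titles, so every etoposide value is that of the libraries titled etoposide. Mouse Hras was at 38.4, 51.6 and 33.5 FPKM in the H-Ras(G12V) libraries and 45.9, 43.0 and 44.2 FPKM in the mCherry libraries, which overlapped. The species of the transgene is not given in these sources, so Hras neither checks nor contradicts the labels. Etoposide library 3 stood apart from its group: its rank correlation across genes was 0.811 and 0.881 with etoposide libraries 1 and 2, and 0.931 to 0.979 with the DMSO libraries. In the mCherry group, libraries 1 and 2 correlated at 0.997, and library 3 with these at 0.929 and 0.925, while it correlated with H-Ras(G12V) libraries 1, 2 and 3 at 0.940, 0.928 and 0.936. Each member's result is given with and without these 2 libraries, which were set apart after their values were seen. Depth, estimated roughly from the steps between low values, was 15450000 to 16950000 fragments per library in the H-Ras(G12V) table and 27050000 to 32000000 in the etoposide table. Neuronal markers were present in all 12 libraries (summed FPKM of 12 markers 642 to 2419), beside markers of neural progenitors (548 to 6277) and astrocytes (622 to 3717). In such bulk RNA, fewer cells of a type and less RNA per cell cannot be told apart.

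Hmga1 and Hmga1b share nearly all of their sequence, which bears on every value given for them. Hmga1 (ENSMUSG00000046711.16) lies on chromosome 17 at 27556497 to 27563674 on the plus strand (GRCm38, GENCODE M21), with up to 6 exons. Hmga1b (ENSMUSG00000078249.5) has 1 exon, on chromosome 11 at 120762794 to 120764419, also on the plus strand. The transcripts Hmga1-216 and Hmga1b-201 aligned over 1602 bases, 98.5% of Hmga1b, and 1599 of these bases were identical. The 3 differences, A736G, A863G and G1325T (base of Hmga1-216, its position counted from 1 at the transcript's 5′ end, base of Hmga1b), all lie in the 3′ UTR. Their coding parts, 321 bases each, were identical. Hmga1 also makes a short form with 288 coding bases that lacks a stretch of 33 bases. That stretch, in capitals below with 21 coding bases on each side, is carried by 10 of the 17 coding transcripts of Hmga1 and by Hmga1b, and it is shown because no read that lies inside it can come from the short form.
Hmga1b-201: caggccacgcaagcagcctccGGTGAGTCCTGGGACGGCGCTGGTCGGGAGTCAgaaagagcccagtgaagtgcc
Hmga1-216: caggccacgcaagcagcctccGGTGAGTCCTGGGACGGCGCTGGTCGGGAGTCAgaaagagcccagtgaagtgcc
Hmga1-201: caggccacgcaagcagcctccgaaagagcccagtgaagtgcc
The first and the second line are the same, so these bases cannot tell Hmga1b from the long form of Hmga1. Of the 1527 windows of 100 bases in Hmga1b-201, 1203 (78.8%) also occurred in a transcript of Hmga1. Of how the authors' counting divided such reads, the sources used here give only the name of RSEM, a program that estimates shares for ambiguous reads. The separate values of Hmga1 and Hmga1b are uncertain for that reason, and their sum is given beside them.

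Hmga1 was higher in all 3 H-Ras(G12V) libraries and in 2 of the 3 etoposide libraries than in any control library of the same table. Its level was 73.0, 91.2 and 76.0 FPKM (fragments corrected for transcript length and library total) in H-Ras(G12V) libraries 1, 2 and 3, and 25.6, 22.9 and 43.9 FPKM in mCherry libraries 1, 2 and 3. The groups did not overlap, and mCherry library 3 was the highest control. It was 240, 169 and 31.7 FPKM in etoposide libraries 1, 2 and 3, and 33.6, 37.9 and 42.6 FPKM in DMSO libraries 1, 2 and 3. Etoposide libraries 1 and 2 lay above all controls, and library 3 lay below all of them.

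Hmga1b was near 0 in all controls and at a level like that of Hmga1 in the libraries where Hmga1 was high. It was listed at 46.6, 80.9 and 43.3 FPKM with H-Ras(G12V) and at 0.08, 0 and 0.12 FPKM with mCherry. It was listed at 412, 207 and 0.22 FPKM in etoposide libraries 1, 2 and 3 and at 0.04, 0.09 and 0.11 FPKM with DMSO. At the estimated depths and a transcript length of 1626 bases, the mCherry values stand for 0 to 2.5 fragments, the DMSO values for 1.7 to 4.7 and the value in etoposide library 3 for 8.9, so no ratio of FPKM against these levels is given, and the log2 differences printed further on depend on the 1 FPKM added to each value. The higher libraries stand for 888 to 1817 fragments with H-Ras(G12V) and for 15636 and 7427 in etoposide libraries 1 and 2.

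Summed, Hmga1 plus Hmga1b held 120, 172 and 119 FPKM in the H-Ras(G12V) libraries and 25.7, 22.9 and 44.1 FPKM in the mCherry libraries. The group means were 137 ± 30.4 and 30.9 ± 11.5 FPKM (SD, n = 3 each), a ratio of 4.44. In the etoposide table the sum was 651, 376 and 31.9 FPKM in etoposide libraries 1, 2 and 3, and 33.6, 38.0 and 42.8 FPKM in the DMSO libraries. The sum in etoposide library 1 was higher than 99.3% of the genes of that library. Hmga1b made up 39.0%, 47.0% and 36.3% of the sum in the H-Ras(G12V) libraries, at most 0.31% in the mCherry libraries, 63.2%, 55.0% and 0.69% in etoposide libraries 1, 2 and 3, and 0.12% to 0.26% with DMSO. The share of Hmga1b was thus high in the same 5 libraries in which the sum was high, and it was larger in etoposide libraries 1 and 2 than in the H-Ras(G12V) libraries.

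**Figure D1:**
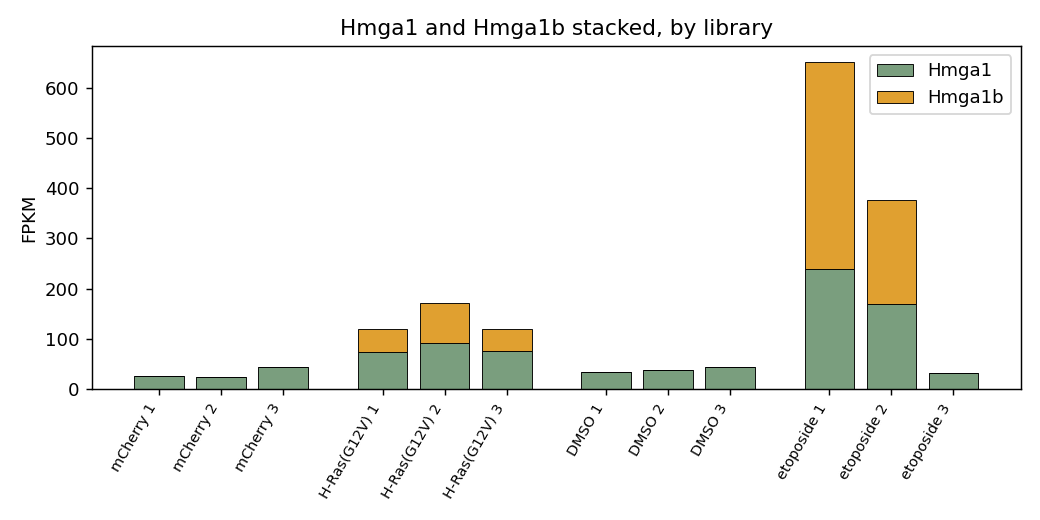
Stacked FPKM of Hmga1 (green) and Hmga1b (orange) in each of the 12 libraries, with the 2 deposited tables side by side although they may be scaled separately. Hmga1b adds a visible part in the 3 H-Ras(G12V) libraries and in etoposide libraries 1 and 2, and none in etoposide library 3 (0.22 FPKM) or the controls.

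Hmga2 is the fetal member of the family, known in neural stem cells for holding down the Cdkn2a locus and for being held down in turn by let-7 microRNAs as the brain ages. It lies on chromosome 10 at 120361275 to 120476469 on the minus strand. Its level was 12.3, 10.0 and 18.4 FPKM in H-Ras(G12V) libraries 1, 2 and 3, and 0.14, 0.16 and 0.26 FPKM in the mCherry libraries. Every H-Ras(G12V) library lay far above every mCherry library, and the group means of 13.6 ± 4.32 and 0.187 ± 0.0643 FPKM stood at a ratio of 72.7. The mCherry values stand for only 8.1 to 14.6 fragments at the estimated depth. With etoposide the level was 5.91, 3.73 and 0.11 FPKM in libraries 1, 2 and 3, against 0.14, 0.08 and 0.04 FPKM with DMSO. Etoposide libraries 1 and 2 were above all controls, and library 3 lay among them.

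The 3′ UTR of Hmga2 is the textbook target of let-7, so its sites are shown here. The annotated transcript Hmga2-203 has a 3′ UTR of 3014 bases with 4 matches to the let-7 seed, printed in capitals at the end of each line below and numbered by bases after the stop codon. The first line is the mature mouse let-7a (RefSeq, GRCm38.p6) with its seed, bases 2 to 8, in capitals.
mmu-let-7a-5p: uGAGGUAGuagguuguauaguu
site 58: gccgacattcaatttCTACCTC
site 1295: ccccactcctcaataCTACCTC
site 1733: ctgatttgcaaggaaCTACCTC
site 2591: aatcaaaacacactaCTACCTC
Each site ends in the 7 letters complementary to the seed. Of 20911 genes with an annotated 3′ UTR, 8.98% held at least 1 such match and 12 held 4 or more, Hmga2, Lin28b and Igf2bp1 among them. Hmga1 and Hmga1b each held 1, and Hmgb1, Hmgb2 and Hmgb3 held 0. A match of letters is a description of the sequence, and no microRNA was measured here.

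**Figure D2:**
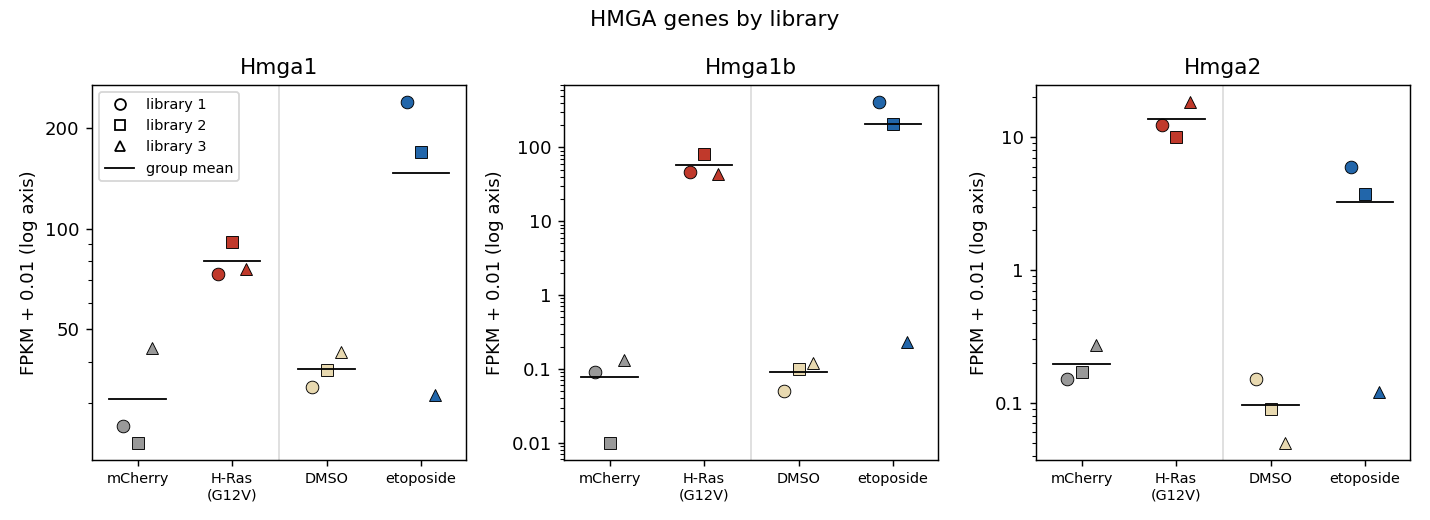
FPKM of Hmga1, Hmga1b and Hmga2 in each library on log axes, with 0.01 FPKM added so that a value of 0 can be drawn. Points are libraries and lines are group means (n = 3). The H-Ras(G12V) libraries and etoposide libraries 1 and 2 lie above all controls for each gene, while etoposide library 3 lies at 31.7, 0.22 and 0.11 FPKM.

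Among the HMGB genes, Hmgb1 (chromosome 5, 149046702 to 149184489, minus strand) had the highest level in all 12 libraries. It was 164, 135 and 189 FPKM in H-Ras(G12V) libraries 1, 2 and 3, and 169, 158 and 105 FPKM in mCherry libraries 1, 2 and 3. These groups overlapped. It was 88.3, 69.4 and 96.4 FPKM with etoposide and 106, 120 and 81.7 FPKM with DMSO, and these groups overlapped as well. RefSeq names 13 pseudogenes after Hmgb1 and neither table lists any of them, so where reads from such copies were counted is not known here.

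Hmgb2 (chromosome 8, 57511907 to 57515999, plus strand) was higher with H-Ras(G12V) than with mCherry and uneven with etoposide. Its level was 59.0, 68.5 and 86.0 FPKM in the H-Ras(G12V) libraries and 34.4, 29.7 and 18.1 FPKM in the mCherry libraries, with no overlap. It was 45.0, 33.3 and 6.67 FPKM in etoposide libraries 1, 2 and 3, and 14.0, 29.8 and 13.9 FPKM in DMSO libraries 1, 2 and 3. Etoposide libraries 1 and 2 were above all 3 controls, and library 3 was below all of them.

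Hmgb3, an HMG-box gene known from progenitor cells, lies on chromosome X at 71555918 to 71560676 on the plus strand. Its level was 74.3, 68.2 and 87.3 FPKM with H-Ras(G12V), against 69.8, 68.7 and 23.4 FPKM with mCherry, where library 3 alone was low. It was 25.3, 17.9 and 27.6 FPKM with etoposide and 31.4, 39.2 and 31.0 FPKM with DMSO. All 3 etoposide libraries, library 3 included, lay below all 3 DMSO libraries.

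**Figure D3:**
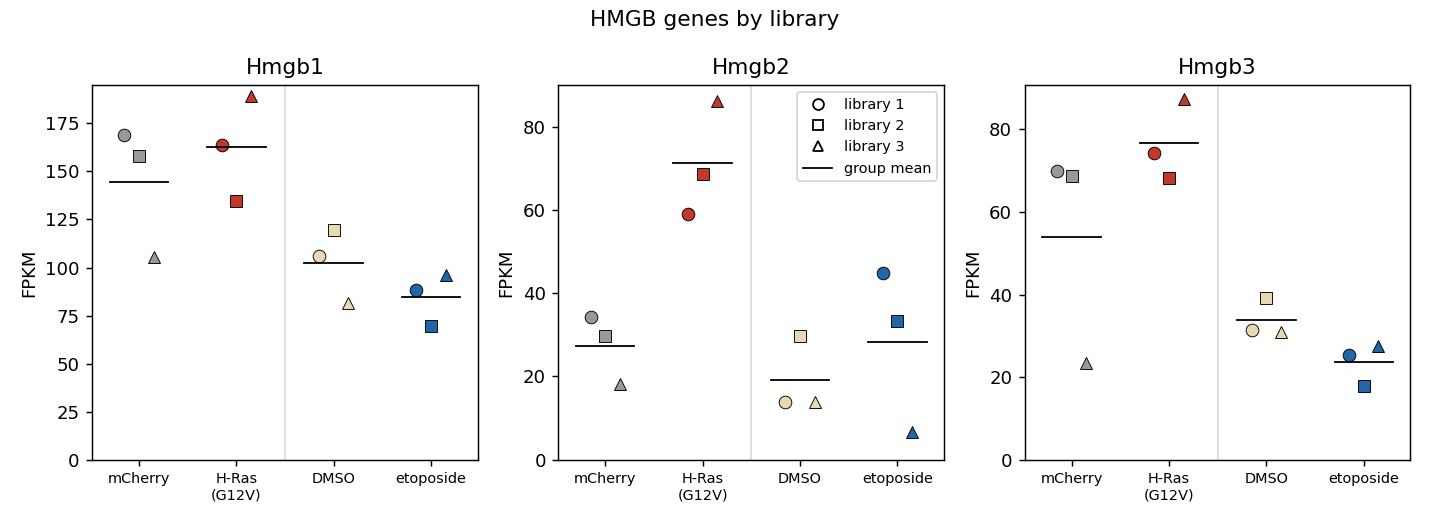
FPKM of Hmgb1, Hmgb2 and Hmgb3 in each library on linear axes that start at 0. Points are libraries and lines are group means (n = 3). Hmgb2 separates the H-Ras(G12V) libraries (59.0 to 86.0) from the mCherry libraries (18.1 to 34.4), and Hmgb3 is lower in all etoposide libraries (17.9 to 27.6) than with DMSO (31.0 to 39.2).

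FPKM values are corrected for length, so levels can be set beside each other within a library. In the mCherry libraries Hmgb1 was the highest member, Hmgb3, Hmga1 and Hmgb2 followed with overlapping ranges, and Hmga2 and Hmga1b were at the bottom. In the DMSO libraries Hmgb1 was again highest, Hmga1 and Hmgb3 overlapped, Hmgb2 lay below both, and Hmga1b and Hmga2 overlapped near 0. In the H-Ras(G12V) libraries Hmgb1 stayed highest, Hmga1, Hmgb3, Hmgb2 and Hmga1b overlapped, and Hmga2 was lowest. In etoposide libraries 1 and 2 the order from highest to lowest was Hmga1b, Hmga1, Hmgb1, Hmgb2, Hmgb3 and Hmga2, while in etoposide library 3 it was Hmgb1, Hmga1, Hmgb3, Hmgb2, Hmga1b and Hmga2. The 3 HMGA genes held 80.6% and 75.9% of the summed FPKM of the 6 genes in etoposide libraries 1 and 2, 27.5% to 40.1% with H-Ras(G12V), and 8.23% to 25.3% in etoposide library 3 and the control libraries. Within the HMGB genes, the ratio of Hmgb1 to Hmgb2 was 2.78, 1.97 and 2.20 with H-Ras(G12V) and 4.92, 5.32 and 5.83 with mCherry. It was 1.97, 2.09 and 14.4 in etoposide libraries 1, 2 and 3 and 7.60, 4.03 and 5.89 with DMSO.

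Differences were estimated with limma on log2(FPKM + 1) over all genes that averaged 1 FPKM or more in a table. All 6 members passed this filter in both tables, Hmga1b and Hmga2 only through the treated libraries. With H-Ras(G12V) the log2 difference from mCherry was 1.40 ± 0.24 (SE) for Hmga1, 5.71 ± 0.24 for Hmga1b, 2.15 ± 0.27 for their sum, and 3.58 ± 0.22 for Hmga2. It was 0.19 ± 0.22 for Hmgb1, 1.38 ± 0.25 for Hmgb2 and 0.65 ± 0.40 for Hmgb3. In the fit over all genes Hmga1, Hmga1b, Hmga2 and Hmgb2 were among those called higher at the adjusted threshold of 0.05, which the choice of Hmga1b, Hmga2 and Hmgb2 had fixed for these 3. Of all 12724 tested genes 17.0% passed in either direction and 10.3% passed as higher. The groups of these 4 members did not overlap, as was the case for 40.3% of tested genes. Since this comparison chose members, nothing is read from these counts. The median log2 difference of all tested genes was 0.05, and the split of calls moved with scaling, from 1312 higher and 849 lower on the deposited values to 856 and 1332 after scaling to a common sum.

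MCherry library 3 moved the HMGB values most. Without it the log2 difference was -0.02 ± 0.15 for Hmgb1, 1.11 ± 0.16 for Hmgb2 and 0.14 ± 0.12 for Hmgb3. The value for Hmgb1 thus changed its sign, and that of Hmgb3 came close to 0. The HMGA values without it were 1.68 ± 0.13 for Hmga1, 5.74 ± 0.25 for Hmga1b, 2.43 ± 0.17 for the sum and 3.62 ± 0.22 for Hmga2. Without this library 5716 genes passed (44.9% in either direction, 25.4% as higher), where mCherry libraries 1 and 2 are nearly alike and the spread between controls is small. When any other single library of this table was left out, between 496 and 1131 genes passed.

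With etoposide no member passed the adjusted threshold over all 3 libraries. The log2 difference from DMSO was 1.51 ± 0.64 for Hmga1, 5.45 ± 1.78 for Hmga1b, 2.37 ± 0.91 for their sum and 1.61 ± 0.58 for Hmga2. The limma adjusted p of Hmga1 was 0.357 and that of the sum 0.354. No p is given for Hmga1b and Hmga2, which passed the filter only through the etoposide libraries. The 95% interval of the sum ran from 0.31 to 4.43. For Hmgb1 the difference was -0.27 ± 0.27 (95% interval -0.87 to 0.33, limma adjusted p = 0.592), for Hmgb2 0.27 ± 0.63 (-1.14 to 1.69, 0.831) and for Hmgb3 -0.52 ± 0.27 (-1.12 to 0.09, 0.383). These intervals hold increases as well as decreases for each HMGB gene. Of the 6 members 0 passed with limma, and Hmga1 had an unadjusted p under 0.05. Nothing is read from the tests of Hmga1b and Hmga2. Over all genes 0.453% passed (56 of 12371, all lower), with 1724 at an unadjusted p under 0.05. The groups did not overlap for Hmga1b, which was higher, and Hmgb3, which was lower. For Hmga1b this rests on values near 0. Etoposide library 3 was at 0.22 FPKM against at most 0.11 FPKM with DMSO, about 8.9 against 4.7 fragments. Of all tested genes 15.8% had groups that did not overlap.

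Etoposide library 3 decided these calls. Without it, the log2 difference was 2.38 ± 0.25 for Hmga1, 8.08 ± 0.32 for Hmga1b, 3.67 ± 0.28 for their sum and 2.40 ± 0.25 for Hmga2. Limma adjusted p was 0.000301 for Hmga1 and 7.36e-05 for the sum. Every p of this fit comes after library 3, where Hmga1 and Hmgb2 were not higher, was set apart on seeing its values. For Hmga1b and Hmga2, which entered this fit only through etoposide libraries 1 and 2, no p is given. Hmgb2 differed by 1.06 ± 0.35 (limma adjusted p = 0.0418), Hmgb1 by -0.37 ± 0.26 (0.305) and Hmgb3 by -0.64 ± 0.26 (0.0826). In this fit of 2 libraries against 3, Hmga1 and Hmgb2 passed, both higher, where 31.8% of 12403 tested genes passed in either direction and 18.4% as higher. Without any other single library of the table no member passed, and Hmgb2 turned to -0.23 without etoposide library 1 and to -0.02 without etoposide library 2. The number of genes that passed was 43 without etoposide library 1, 6 without library 2, and 22, 25 and 4 without DMSO libraries 1, 2 and 3. The higher HMGA values with etoposide thus rest on 2 libraries of 3.

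**Figure D4:**
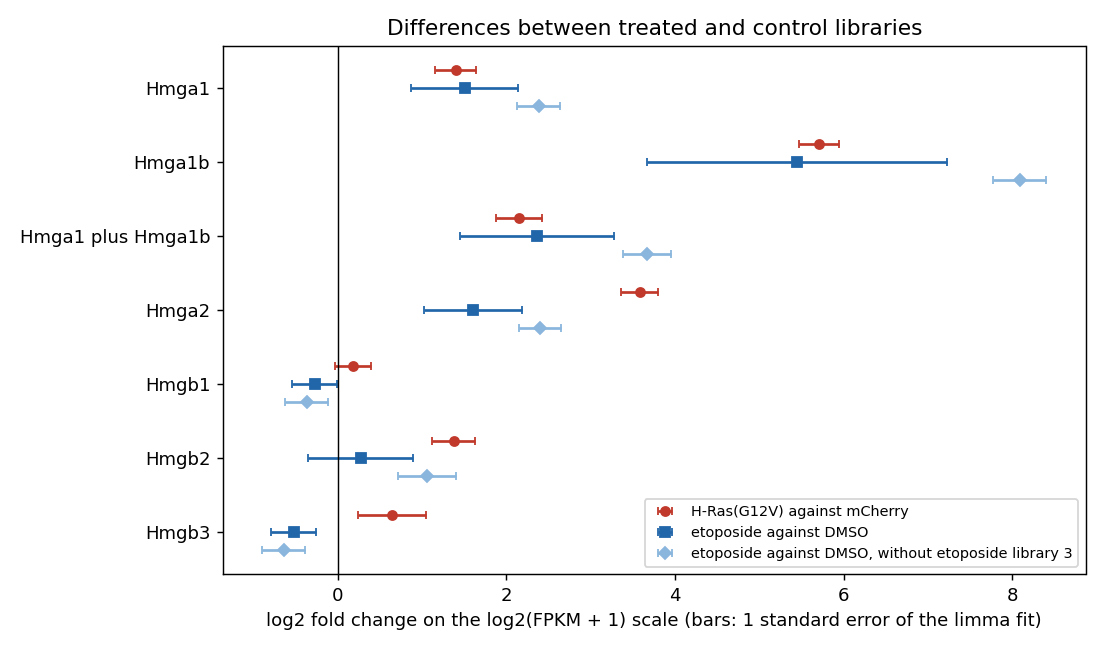
Log2 fold change of each member and of the sum of Hmga1 and Hmga1b on the log2(FPKM + 1) scale, with bars of 1 standard error from the limma fit, for H-Ras(G12V) against mCherry (red), etoposide against DMSO (dark blue) and the latter without etoposide library 3 (light blue). The bar of Hmga1b shrinks from 1.78 to 0.32 without etoposide library 3, and the value for Hmgb3 is above 0 with H-Ras(G12V) and below 0 with etoposide.

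Hmgb2 is commonly taken as a gene of dividing cells, so 16 proliferation genes were set beside it. With H-Ras(G12V) 13 of 16 rose and 0 fell, where 10.3% of all genes passed as higher (median log2 difference 0.85, against 0.05 over all tested genes). The replication helicase genes Mcm2 and Mcm5 rose by 1.21 ± 0.13 and 1.16 ± 0.16 (limma adjusted p = 0.00374 and 0.00673), and Mki67, the Ki-67 marker of cycling cells, rose by 1.04 ± 0.20 (0.0180). With etoposide 6 of 14 tested proliferation genes fell and 0 rose (median -1.86, against 0.09 over all tested genes), where 0.453% of all tested genes passed. Without etoposide library 3, 12 of 15 fell and 0 rose, where 31.8% of all genes passed in either direction. In the fit with all 3 etoposide libraries, the cyclin genes Ccnb1 and Ccna2 fell by 3.24 ± 0.28 and 2.77 ± 0.31 (limma adjusted p = 0.00226 and 0.00680).

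Etoposide library 3 shared this decrease. Ccnb1 was at 0.54, 0.39 and 0.33 FPKM in etoposide libraries 1, 2 and 3, and at 10.2, 15.98 and 11.6 FPKM in the DMSO libraries. Mcm5 was at 0.63, 0.51 and 1.35 FPKM, against 7.11, 9 and 12.2 FPKM. So library 3 lay with the other etoposide libraries for Ccnb1, Mcm5 and Hmgb3, and with or below the DMSO libraries for Hmga1, Hmga2 and Hmgb2. In etoposide libraries 1 and 2 Hmgb2 was above every DMSO library while the summed FPKM of the 16 proliferation genes was 131 and 119, below every DMSO library (178 to 252). Not every gene of the sum fell there, though 12 of 15 tested without library 3 did. Pcna, its largest part, was at 90.1 and 79.5 FPKM in etoposide libraries 1 and 2, within the DMSO range (69.8 to 91.3). Mcm2 was at 15.5, 14.2 and 4.28 FPKM in etoposide libraries 1, 2 and 3, against 8.64 to 14.1 FPKM with DMSO. In the H-Ras table Hmgb2 and the proliferation sum were both higher in the H-Ras(G12V) libraries (496 to 694, against 283 to 360). The part of proliferating cells in the level of Hmgb2 was not tested.

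**Figure D5:**
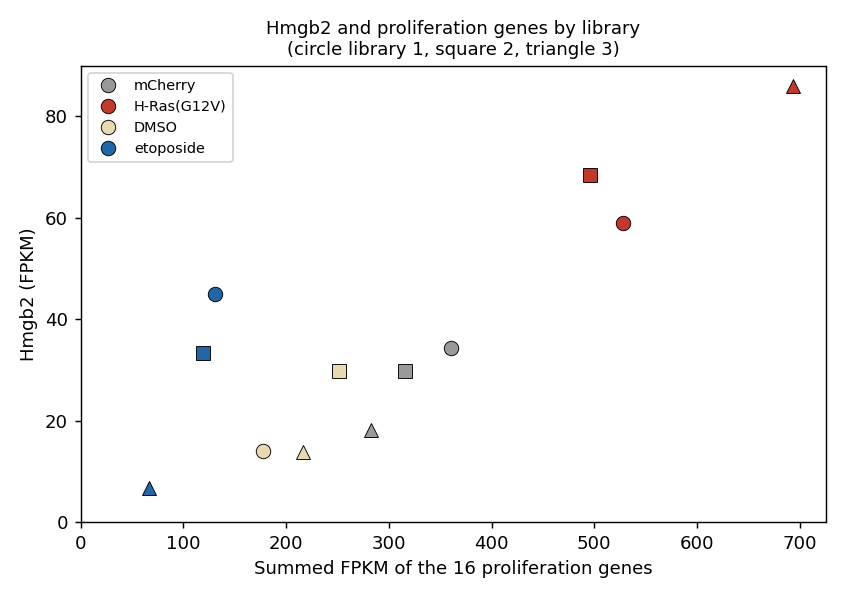
Hmgb2 in FPKM against the summed FPKM of 16 proliferation genes in each of the 12 libraries, colours for groups and symbols for library numbers, both axes from 0 and the 2 deposited tables drawn together. The H-Ras(G12V) libraries lie at the upper right, and etoposide libraries 1 and 2 (45.0 and 33.3 FPKM of Hmgb2) lie above the DMSO libraries in Hmgb2 and to their left in the proliferation sum.

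Hmgb2 and Hmga1b had high levels in the same 5 libraries, H-Ras(G12V) 1 to 3 and etoposide 1 and 2, while the summed proliferation genes did not. Their promoters are shown as examples. Hmga1 and Hmga2 were high in the same 5 libraries. Their windows held none of the E2F, CHR, CCAAT or AP-1 letters described next and are not printed. Windows cover the bases before and shortly after each start (RefSeq, GRCm38.p6, a later build than the mm9 of the submitters' notes), and all 6 members had at least 1. Both strands were searched for E2F letters (TTTCCCGC, TTTGGCGC or TTTCGCGC), CHR letters (TTTGAA or TTCGAA), which mark many cell-cycle promoters, CCAAT, the E-box CACGTG, AP-1 letters (TGANTCA) and the GC box GGGCGG. In the printed windows CHR, CCAAT and AP-1 letters are in capitals, on either strand, and no match overlaps another.
Hmgb2, chr8:57511593-57511892, plus strand: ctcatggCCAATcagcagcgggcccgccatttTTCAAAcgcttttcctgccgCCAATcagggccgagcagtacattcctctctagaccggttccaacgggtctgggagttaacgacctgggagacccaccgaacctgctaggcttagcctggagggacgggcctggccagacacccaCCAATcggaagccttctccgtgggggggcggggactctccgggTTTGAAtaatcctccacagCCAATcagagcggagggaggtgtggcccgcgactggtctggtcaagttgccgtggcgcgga
Hmga1b, chr11:120762544-120762843, plus strand: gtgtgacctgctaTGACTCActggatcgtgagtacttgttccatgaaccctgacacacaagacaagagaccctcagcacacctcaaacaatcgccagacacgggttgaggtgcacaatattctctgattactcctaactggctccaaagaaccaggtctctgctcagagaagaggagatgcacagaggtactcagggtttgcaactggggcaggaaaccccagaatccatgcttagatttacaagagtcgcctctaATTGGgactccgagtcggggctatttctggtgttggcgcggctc
Hmgb2 held 2 CHR and 4 CCAAT matches, where 19.1% and 37.4% of 32544 mouse promoter windows held at least 1 of each. Hmgb3 held 1 CHR and 3 CCAAT matches, 1 of the 2 windows of Hmgb1 held 3 CCAAT, and Hmga1b held 1 CCAAT. Hmga1b was the 1 member with AP-1 letters, at position -237 from its start, which 7.79% of windows held. GC boxes numbered 4 in each window of Hmga1 and in the other window of Hmgb1, and 1 each in Hmga2, Hmgb2 and Hmgb3, where 35.9% of windows held at least 1. The E-box had 1 match, in that window of Hmgb1, and in 7.17% of all windows. The E2F letters were in none of these windows and in 1.86% of all. These counts describe letters in short windows and say nothing of what binds there.

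Genes tied to Hmga2 in progenitors were described from a list of 10. Of 7 tested, 5 rose with H-Ras(G12V) and 0 fell: Igf2bp2, Igf2bp3, Cdkn2a, Cdkn2b and Myc. Over all tested genes 10.3% passed as higher. Without mCherry library 3 the same 5 were higher and Mycn was lower (-2.49 ± 0.13), where 44.9% of all genes passed in either direction. Mycn, named after its values were seen, was at 3.76, 3.50 and 2.86 FPKM with H-Ras(G12V). In mCherry libraries 1, 2 and 3 it was at 24.8, 22.35 and 2.89 FPKM. Cdkn2b, the cell-cycle inhibitor gene next to Cdkn2a, was at 22.3, 29.4 and 29.2 FPKM with H-Ras(G12V) and 2.37, 3.42 and 5.37 with mCherry (log2 difference 2.60 ± 0.25, limma adjusted p = 0.00233). Cdkn2a, which Hmga2 is known to hold down in fetal stem cells, was at 18.6, 33.4 and 47.6 FPKM against 0.95, 1.37 and 3.84 (3.51 ± 0.43, limma adjusted p = 0.00481). So Hmga2 and Cdkn2a were high in the same 3 libraries. Igf2bp3, a fetal RNA-binding protein gene, rose by 1.29 ± 0.12 (limma adjusted p = 0.00233).

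With etoposide 0 of these 7 passed with limma, where 0.453% of all tested genes passed. Without etoposide library 3 Igf2bp2, Cdkn2b and Myc passed as higher, where 18.4% of all genes did. Cdkn2b was at 19.6, 15.3 and 5.71 FPKM in etoposide libraries 1, 2 and 3 against 2.74, 3.45 and 3.35 with DMSO, so it was high in the same libraries as Hmga2. Cdkn2a was at 5.48, 5.30 and 3.72 FPKM against 3.28, 2.26 and 6.95, and these groups overlapped (log2 difference 0.27 ± 0.37, limma adjusted p = 0.710). Igf2bp2, named after its values were seen and known as a target of Hmga2, was at 7.46, 5.02 and 0.49 FPKM with etoposide and 0.29, 0.71 and 0.14 with DMSO. With H-Ras(G12V) it was at 1.91, 2.06 and 2.72 FPKM, against 0.73, 0.79 and 0.10 with mCherry. Lin28a and Lin28b, the inhibitors of let-7 maturation, and Igf2bp1 were also named after their values were seen, and each stayed below 1 FPKM in all 12 libraries (the highest value was 0.62 FPKM, for Igf2bp1 in etoposide library 1).

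Of 15 tested further HMG-box genes, such as subunits of remodelling complexes, 4 HMGN genes, 3 linker histone genes and 11 genes for components of senescence-associated heterochromatin, 0 passed with H-Ras(G12V), where 17.0% of all tested genes passed. With etoposide 0 of 14, 4, 5 and 11 in the same order passed. Only 0.453% of all tested genes passed in that fit, so a count of 0 says little here. Without etoposide library 3 there were 2 higher and 0 lower of 14 further HMG-box genes, 1 higher and 0 lower of 4 HMGN genes, 1 higher and 1 lower of 5 linker histones, and 1 higher and 3 lower of 11 heterochromatin genes, where 31.8% of all genes passed. Without mCherry library 3 the H-Ras(G12V) calls were 3 higher and 3 lower of 15 further HMG-box genes, 1 higher and 0 lower of 4 HMGN genes, 1 higher and 0 lower of 3 linker histones, and 0 higher and 2 lower of 11 heterochromatin genes, where 44.9% of all genes passed. Hmgn1, the HMGN gene that passed in both of these fits and was named after its values were seen, was at 378, 245 and 98.7 FPKM in etoposide libraries 1, 2 and 3 and at 97.8, 129 and 123 FPKM with DMSO.

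Receptors and partners of extracellular Hmgb1 were mostly low, with 6 of 12 tested in each table. With H-Ras(G12V) the interleukin-1 receptor gene Il1r1 rose by 1.16 ± 0.24 (limma adjusted p = 0.0225). Cxcl12, the chemokine that Hmgb1 can bind, fell by 3.08 ± 0.22 (limma adjusted p = 0.00126), from 39.1, 34.8 and 26.0 FPKM with mCherry to 2.61, 4.22 and 2.37 FPKM. Without mCherry library 3, 2 of 5 tested were higher and 3 lower, where 44.9% of all genes passed. With etoposide 0 of 6 passed, where 0.453% of all tested genes passed. Without etoposide library 3, where 31.8% of all genes passed, 4 were higher and 2 lower, Cxcl12 among the lower at 10.2 and 3.77 FPKM in libraries 1 and 2 against 30.7 to 57.9 FPKM with DMSO.

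Cell type markers moved with both treatments, and their part in the member values was not tested. Of all tested genes 10.3% passed as higher with H-Ras(G12V) and 17.0% in either direction. With H-Ras(G12V) all 10 markers of fibroblasts and mural cells fell, among them Igf2, a fetal growth factor gene that dropped by 5.09 ± 0.31 (limma adjusted p = 0.000837), and their summed level was 19.9 to 33.1 FPKM against 305 to 417 with mCherry. Of 9 oligodendrocyte-lineage markers 6 rose and 0 fell, among them Olig2, a transcription factor gene of that lineage (1.83 ± 0.35, limma adjusted p = 0.0172), with sums of 934 to 1150 FPKM against 230 to 778. Of 11 progenitor markers 3 rose and 0 fell (sums of 5320 to 6277 FPKM against 2886 to 3622). Of 10 astrocyte markers 2 rose and 0 fell (2577 to 3717 against 1191 to 3153), and of 3 tested microglial markers 2 rose (34.6 to 60.2 against 19.8 to 28.1). Of 12 neuronal markers 1 rose and 3 fell (1190 to 1398 against 1761 to 2386). Without mCherry library 3 the counts were 9 of 9 oligodendrocyte-lineage, 6 of 11 progenitor and 8 of 10 astrocyte markers higher with 0 lower, and 3 neuronal markers higher and 8 lower, where 25.4% of all genes passed as higher and 44.9% in either direction.

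With etoposide, where 0.453% of all tested genes passed, the markers that passed fell. They were 4 of 9 of the oligodendrocyte lineage (summed FPKM 78.0 to 220 against 563 to 924 with DMSO) and 2 of 11 of progenitors (548 to 1004 against 1913 to 2440). Olig2 fell by 2.22 ± 0.30 (limma adjusted p = 0.0163), and Fabp7, an abundant progenitor and glial gene, was at 120, 60.8 and 618 FPKM against 1612 to 2184 (limma adjusted p = 0.116). Both were lower in all 3 etoposide libraries. Fabp7 made up most of the progenitor sum in the DMSO libraries. Vim, the other of the highest progenitor markers, was at 752, 382 and 186 FPKM with etoposide against 149 to 214 with DMSO. It was thus higher, not lower, in etoposide libraries 1 and 2. Of 12 neuronal (642 to 2419 FPKM against 1733 to 2098), 9 astrocyte (622 to 978 against 1033 to 1600), 10 fibroblast and mural (177 to 774 against 194 to 626) and 4 microglial markers (29.9 to 153 against 23.0 to 55.5), 0 passed. The neuronal sum was 642, 1354 and 2419 FPKM in etoposide libraries 1, 2 and 3. Libraries 1 and 2 thus lay below the DMSO range and library 3 above it. Without etoposide library 3, 7 of 9 oligodendrocyte-lineage markers were lower, as were 5 of 12 neuronal and 7 of 10 astrocyte markers, the last with 1 higher. Progenitor markers then split into 3 higher and 3 lower of 11, 1 of 9 fibroblast and mural markers was lower and 1 of 4 microglial markers higher, where 31.8% of all genes passed. Cd68, a lysosomal marker of phagocytes, was at 97.4, 77.4 and 3.78 FPKM in etoposide libraries 1, 2 and 3 and at 3.92, 11.5 and 3.22 FPKM with DMSO, so it was high in the libraries with high Hmga1 and Hmga2. Among defining microglial markers P2ry12 was at 0 in etoposide library 2, Cx3cr1 in DMSO library 3, and Itgam and C1qa in mCherry library 3.

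Some genes had profiles much like those of the members. Likeness was the root mean square difference over the 12 libraries of log2(FPKM + 1), centred within each table, among 12179 genes, and it is a description with no test. Nearest to Hmga2 were Cdkn2b (0.48), Layn (0.56) and Unc5b (0.60). Layn, which encodes a membrane receptor for hyaluronan, was at 21.5 to 24.2 FPKM with H-Ras(G12V), 2.50 to 5.74 with mCherry, 18.2 and 14.8 in etoposide libraries 1 and 2, 3.77 in library 3 and 2.59 to 5.11 with DMSO. Nearest to the sum of Hmga1 and Hmga1b were Clic1 (0.26), Tnfrsf12a (0.27) and Areg (0.29), which encode an intracellular channel protein, the receptor of the cytokine TWEAK and the growth factor amphiregulin. Tnfrsf12a was at 343, 218 and 28.2 FPKM in etoposide libraries 1, 2 and 3 and 18.2 to 29.4 with DMSO. Nearest to Hmgb2 were Mcm7 (0.36), Myc (0.37) and Cdkn1c (0.38). Mcm7, another replication helicase gene, was at 49.1, 52.2 and 6.28 FPKM in etoposide libraries 1, 2 and 3 and 15.1 to 24.8 with DMSO, the same split between libraries as Hmgb2. Myc was at 40.5, 20.5 and 7.02 FPKM with etoposide and 10.97 to 11.8 with DMSO. Among the members themselves, Hmga1 ranked 38 and Hmgb2 ranked 131 in likeness to Hmga2, while Hmgb3 ranked 5976, Hmgb1 6770 and Hmga1b 11784 of the 12179. The measure counts the size of differences, and those of Hmga1b were larger than those of Hmga2. Ranks also differ by direction: in likeness to Hmgb2, Hmga2 ranked 9062 and Hmga1 1313. The difference between Hmga2 and Hmgb2 (0.98) was larger than the root mean square of the profile of Hmgb2 itself (0.82).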

How the data were processed

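The 2 deposited tables, 1 per model, hold FPKM for each gene and library, computed by the authors and deposited to 2 decimals. HISAT, Bowtie2, RSEM and mm9 appear in the submitters' processing notes without versions or roles. Groups came from the sample titles. The members, lists and tests were chosen with earlier results of these data known. From the deposited FPKM, log2(FPKM + 1) was tested in each table separately with limma 3.58.1 (R 4.3.3; lmFit, eBayes with trend, two-sided, Benjamini-Hochberg over all tested genes, threshold 0.05), for genes averaging 1 FPKM or more. The script was tested on simulated data. An exact permutation test of 3 against 3 cannot go below p = 0.1 and was not used. Log2 differences understate changes of low genes. For the sum, Hmga1 and Hmga1b were added in FPKM and replaced both rows. Named genes were the members, up to 3 called genes per list and comparison with the largest log2 difference and a mean of at least 5 FPKM in the higher group, the 2 highest genes of each marker list, and the 3 nearest profiles; others are said to be named after their values were seen, and some genes taken by the rule are not described. Depth was estimated from the steps of low values with GENCODE M21 lengths and is approximate. Sequences were read with Biopython 1.88 from GENCODE M21 transcripts and RefSeq tables, never by mm9 coordinates. Alternatives were pseudocounts of 0.1 and 5, no filter or a minimum average of 5 FPKM, 2 other scalings, a replicate block, each library left out, mCherry libraries 1 and 2 averaged, and a single fit of all 12 libraries.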

Additional observations from a re-analysis of the deposited data

Results flagged for a closer look

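Hmgb3 went opposite ways in the 2 models. All 3 H-Ras(G12V) libraries lay above the mCherry mean (log2 difference 0.65) and all 3 etoposide libraries lay below the DMSO mean (log2 difference -0.52, limma adjusted p = 0.383). The difference between the models was not tested. The H-Ras(G12V) value rests on mCherry library 3, without which it was 0.14.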

How the results depend on the processing

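Over the alternatives, the H-Ras(G12V) values of the members kept their direction, except that of Hmgb1, which was -0.023 without mCherry library 3. The pseudocount moved 2 of them by more than the spread between libraries: Hmga2 was at 5.55 with 0.1 and 1.82 with 5, and Hmga1b at 8.44 and 3.56. Of 105 such values 100 kept their direction and moved by less than that spread, but nothing is read from this count. The other filters, the replicate block and the single fit of 12 libraries cannot change the log2 difference of a member. Hmga1b, Hmga2 and Hmgb2 had also been chosen by this comparison. With etoposide 89 of 96 kept their direction and their side of the threshold, and nothing is read from this count either. It includes the calls of Hmga1b and Hmga2, which are not read here. The same settings could change the adjusted p of a member but not its log2 difference. Hmgb2 turned to -0.23 without etoposide library 1 and to -0.016 without library 2. Without etoposide library 3, Hmga1 (2.38), the sum of Hmga1 and Hmga1b (3.67) and Hmgb2 (1.06) passed the threshold; Hmga1b (8.08) and Hmga2 (2.40) entered that fit only through the etoposide libraries, and no call is read from them. Leaving out 1 library in turn gave log2 differences of 0.94 to 2.38 for Hmga1, 3.88 to 8.08 for Hmga1b, 1.35 to 2.40 for Hmga2, 1.52 to 3.67 for the sum and -0.23 to 1.06 for Hmgb2. It gave -0.023 to 0.32 for Hmgb1 with H-Ras(G12V). Adjusted p (limma) with etoposide ranged over the alternatives from 7.36e-05 to 0.807 for the sum and from 0.000301 to 0.807 for Hmga1. Hmga2 fell under the filter at a mean of at least 5 FPKM and without etoposide library 1 and so has no value there. The number of genes that passed, 2161 with H-Ras(G12V), was 496 to 5716 with 1 library left out, 639 with mCherry libraries 1 and 2 averaged and 496 in the single fit of 12 libraries; with median-of-ratios scaling the calls were 1046 higher and 1084 lower. With etoposide it was 56, 4 to 3938 with 1 library left out, 22 at a mean of at least 5 FPKM and 194 in the single fit. Same-numbered libraries deviated with correlations of -0.04, 0.03 and 0.12 in the H-Ras(G12V) table and -0.26, -0.17 and -0.15 in the etoposide table, so the numbers were not taken to pair them. With a replicate block 12 genes passed with etoposide and 1681 with H-Ras(G12V), and no etoposide call of a member changed (adjusted p from limma of 0.292 for the sum). At the estimated depth, control values of Hmga1b rest on 0 to 4.7 fragments.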
